A study of Homo sapiens with 2 samples.

Results

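The 4 teneurins (TENM1 to TENM4), the 3 latrophilins (LPHN1 to LPHN3, now named ADGRL1 to ADGRL3) and the 3 FLRT proteins (FLRT1 to FLRT3) form a set of surface proteins that bind one another between cells. All 10 genes were found by symbol among the 25343 rows of the deposited expression table. They were chosen with the contrast below already known, and with the opposite course of TENM1 and TENM2 in view, so their values are a description and carry no test. RNA-seq covered 2 libraries of C4-2B, a castration-resistant derivative of the human prostate cancer line LNCaP by way of C4-2. The Con library came from enzalutamide-sensitive cells kept in DMSO, and the ENZR library from enzalutamide-resistant cells kept in 20 µM enzalutamide, an androgen receptor antagonist. Both sample titles carry the ending shC, and no label says what it means, so whatever it stands for is shared by both groups. Each group is 1 library of 1 line, so the spread between cultures is unknown. Resistance and the presence of the drug cannot be told apart, and neither can fewer cells expressing a gene and less RNA per cell.

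Teneurins are very large single-pass membrane proteins whose extracellular part binds latrophilins on a facing cell. Latrophilins are adhesion G-protein-coupled receptors, first known as receptors of the spider toxin alpha-latrotoxin, and they bind teneurins and FLRT proteins at the same time through separate domains. FLRT proteins carry leucine-rich repeats and a fibronectin domain, and they also bind the UNC5 netrin receptors. The system is best known from the nervous system, where it guides axons and sets up synapses.

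Values are CPM, a gene's reads for every 1000000 in the library, scaled by the authors with TMM. They were whole multiples of 1 step, so the reads behind them could be recovered: 21024484 in Con and 23479051 in ENZR, with 1 read worth 0.0490 and 0.0404 CPM. Folds are plain CPM ratios, and the range after each is its exact 95% binomial interval, which covers counting error only. The log2 ratio of ENZR over Con was taken after adding 1 CPM, and was ranked over the 13803 genes whose mean was at least 1 CPM, called measured below. Its median over those genes was -0.01, and 0.10 when the authors' scaling was undone. All 9 markers of luminal prostate cells were measured, with summed levels of 3718 CPM in Con and 2486 CPM in ENZR. Of 8 neuronal markers, GAD1 alone was measured, and the list summed to 3.87 CPM in Con and 4.41 CPM in ENZR. Within these sums GAD1 went from 3.23 to 2.02 CPM, and SYT1, a synaptic vesicle protein, from 1 read to 40, or 0.0490 to 1.62 CPM, with a ratio of 33.0 (5.60 to 1336). SLC17A6 and GAD2 were at 0 in both libraries, and SNAP25 and STMN2 at 0 in Con. The glial and Schwann list summed to 95.1 CPM and 63.0 CPM, nearly all of it MBP (95.1 CPM and 62.2 CPM), with SOX10 and S100B at 0 in both. Stromal markers summed to 20.8 CPM and 47.4 CPM, endothelial markers to 10.7 CPM and 5.26 CPM, and leukocyte markers to 19.2 CPM and 15.2 CPM. COL1A2, CDH5 and CD3E were at 0 in both libraries, but some other markers of these lists were not level, and they went both ways. Of the stromal list, COL1A1 was at 18.1 and 44.4 CPM, and LUM had 0 reads in Con and 32 in ENZR. PDGFRB was at 2.45 and 1.66 CPM, and COL3A1 had 5 reads in Con and 0 in ENZR. Endothelial VWF was at 8.92 and 2.91 CPM, while PECAM1 was at 1.57 and 1.66 CPM and KDR had 4 reads in Con and 16 in ENZR. Leukocyte CD68 was at 15.7 and 9.87 CPM, and LYZ went the other way, at 2.94 and 5.10 CPM. The part of these markers in the results was not tested.

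Reads were 50 bases long, so the first matter is whether such reads can tell close relatives apart. In the GENCODE 29 transcripts, the longest run shared by the coding parts of TENM1 and TENM2 was 20 bases, and that of LPHN1 and LPHN2 was 23 bases. The stretches of 60 bases around these runs are shown because both pairs hold a gene that was higher and a gene that was lower in ENZR, with the shared run in capitals:

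TENM1, from coding base 4094: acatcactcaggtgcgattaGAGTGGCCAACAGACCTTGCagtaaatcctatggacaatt
TENM2, from coding base 4223: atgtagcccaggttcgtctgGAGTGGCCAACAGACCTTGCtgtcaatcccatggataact
LPHN1, from coding base 2382: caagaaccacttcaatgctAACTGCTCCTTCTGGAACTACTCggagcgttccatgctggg
LPHN2, from coding base 2340: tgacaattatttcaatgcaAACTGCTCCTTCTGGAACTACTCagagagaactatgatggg

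Of the 60 positions shown, 46 were identical in the teneurin pair and 47 in the latrophilin pair. No 50-base window of a member's transcript occurred in another member, whichever strand was read. TENM2, TENM4, LPHN2, LPHN3 and FLRT3 shared no window with the transcript of any gene. TENM1 shared 196 of its 12842 windows, or 1.53%, with STAG2, a cohesin gene that lies on the opposite strand and overlaps TENM1 exons over 241 bases. FLRT1 shared 22.4% of its windows, all with the overlapping non-coding genes AP000721.2 and AP006333.1, and LPHN1 shared 2.93% with AC022098.1 and SUZ12P1. The use of strand in the counting is not given in the sources used here, so reads from such overlaps cannot be assigned to either gene.

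RefSeq on GRCh38.p14 listed 23 promoter windows for 9 of the 10 genes, each 300 bases long, with 250 bases before an annotated start and 50 after it. LPHN1 had no entry. The windows of TENM1, on chromosome X, and of TENM2, on chromosome 5, are shown because these genes went opposite ways, with CG dinucleotides in capitals:

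TENM1, chrX:125204263-125204562, minus strand: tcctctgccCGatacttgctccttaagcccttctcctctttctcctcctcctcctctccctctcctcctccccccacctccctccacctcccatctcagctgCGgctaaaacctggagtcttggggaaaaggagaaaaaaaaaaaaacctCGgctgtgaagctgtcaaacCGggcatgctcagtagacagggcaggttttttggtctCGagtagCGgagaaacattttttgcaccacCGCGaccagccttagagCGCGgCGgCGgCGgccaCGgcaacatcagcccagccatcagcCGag
TENM1, chrX:124963768-124964067, minus strand: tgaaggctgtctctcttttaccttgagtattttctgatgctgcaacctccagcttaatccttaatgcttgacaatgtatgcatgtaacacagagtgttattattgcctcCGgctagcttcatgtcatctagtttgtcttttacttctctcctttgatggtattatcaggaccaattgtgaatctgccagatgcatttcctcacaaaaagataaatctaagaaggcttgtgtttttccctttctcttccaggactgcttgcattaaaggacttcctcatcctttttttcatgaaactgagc
TENM2, chr5:167072992-167073291, plus strand: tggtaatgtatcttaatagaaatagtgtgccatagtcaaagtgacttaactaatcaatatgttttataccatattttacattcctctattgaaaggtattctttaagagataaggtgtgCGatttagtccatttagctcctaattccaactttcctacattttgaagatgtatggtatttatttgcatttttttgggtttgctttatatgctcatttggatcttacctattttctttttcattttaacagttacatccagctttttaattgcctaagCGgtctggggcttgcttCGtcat
TENM2, chr5:167754679-167754978, plus strand: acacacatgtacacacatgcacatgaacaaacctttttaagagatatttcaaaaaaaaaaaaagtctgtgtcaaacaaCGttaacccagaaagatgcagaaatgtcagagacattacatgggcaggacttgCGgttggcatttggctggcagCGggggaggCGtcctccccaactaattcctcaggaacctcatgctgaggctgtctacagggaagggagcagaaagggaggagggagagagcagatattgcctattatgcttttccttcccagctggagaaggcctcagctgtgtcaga

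The upstream TENM1 window held 15 CG dinucleotides and the downstream one 1, while the TENM2 windows held 3 and 4. The median over 35116 windows of all genes was 14. A window with at least 50% G and C and a CG count of at least 0.6 times that from its base composition was called CpG-rich, which 46.9% of all windows were. The upstream TENM1 window was CpG-rich, and neither TENM2 window was. The windows of TENM3 and TENM4, the teneurins with little or no signal, held 22 to 39 CG dinucleotides and were CpG-rich. The androgen receptor half-site AGAACA, searched on both strands, occurred in 0 of the 23 windows, and in 14.8% of all windows. TATAAA, on either strand, occurred in 2 of the 23 windows, 2 times in the first TENM2 window and 1 time in an LPHN2 window, and in 11.5% of all windows. The table gives annotated starts, and which of them these cells used was not measured.

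TENM1 was the teneurin of the Con library and TENM2 that of the ENZR library. TENM1 had 563 reads, or 27.6 CPM, in Con and 15 reads, or 0.607 CPM, in ENZR. It was 45.5-fold lower in ENZR (27.3 to 81.8), with a log2 ratio of -4.15. Only 20 genes of 13803 had a lower one. TENM2 had 14 reads, or 0.686 CPM, in Con and 2034 reads, or 82.3 CPM, in ENZR. It was 119.9-fold higher (71.3 to 220), with a log2 ratio of 5.63, the 6th highest of all. The low library of each gene thus lay near the other's, at 0.607 CPM and 0.686 CPM. STAG2, whose exons overlap TENM1, had a level of 282 CPM in the Con library against 299 CPM in the other, at a ratio of 1.06 (1.02 to 1.10). Whether any of the 15 TENM1 reads in ENZR came from STAG2 was not tested.

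The other two teneurins had few or no reads. TENM3, known for matching neurons in visual circuits, had 0 reads in both libraries, which allows up to 0.147 CPM in Con and 0.121 CPM in ENZR with a floor of 3 reads. TENM4, which is needed for myelination in mice, had 3 reads in Con against 5 in ENZR, and the interval of its ratio, 1.38, ran from 0.268 to 8.86. A difference in TENM4 was not detectable at this depth.

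Set against the whole family, the change was one of composition as well as of amount. The 4 teneurins summed to 28.4 CPM in Con and to 83.1 CPM in ENZR, 2.92-fold higher (2.66 to 3.21). TENM1 gave 97.1% of the 580 teneurin reads in Con (exact 95% interval 95.3 to 98.3%) and 0.730% of the 2054 in ENZR, where it rested on 15 reads. TENM2 gave 2.41% in Con (1.33 to 4.02%) and 99.0% in ENZR (98.5 to 99.4%). The coding parts of the genes are of like length, 8196 bases for TENM1 and 8322 for TENM2. These shares of reads thus differ little from shares per coding length. The whole transcripts differ more, at 12891 bases for TENM1 and 8550 for TENM2.

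**Figure D1:**
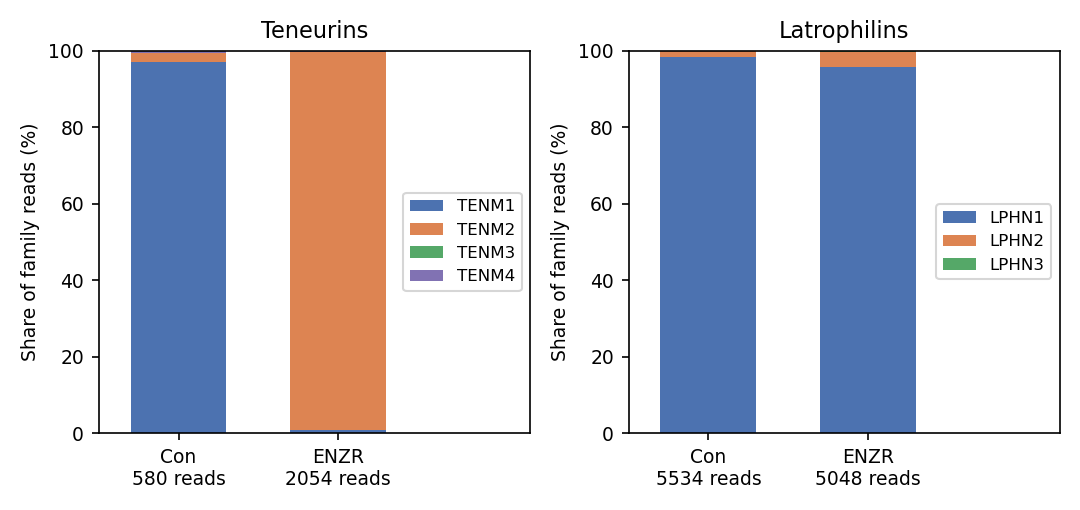
Share of family reads (y axis, %) that each gene gave in the Con and the ENZR library (x axis, 1 library each), for teneurins at left and latrophilins at right. TENM1 fills 97.1% of the Con teneurin bar and TENM2 99.0% of the ENZR bar, while LPHN1 fills 98.3% and 95.8% of the latrophilin bars.

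Latrophilins, the receptors of the system, were present in both libraries. LPHN1 was the most abundant of the 10 genes, with 5438 reads (266 CPM) in Con and 4838 reads (196 CPM) in ENZR. It was 1.36-fold lower in ENZR (1.31 to 1.42), with a log2 ratio of -0.44, or -0.33 with the authors' scaling undone. LPHN2, a broadly expressed latrophilin, had 96 reads (4.70 CPM) in Con. In ENZR it had 199 reads (8.05 CPM) and was 1.71-fold higher (1.33 to 2.21). LPHN3, which is mainly a brain gene, had 0 reads in Con and 11 reads, or 0.445 CPM, in ENZR. With Con set at the floor of 3 reads it was 3.03-fold higher, and the counting interval of the ratio ran from 2.07 upward. The latrophilins summed to 271 CPM and 204 CPM, 1.33-fold lower in ENZR (1.28 to 1.38). LPHN1 gave 98.3% of their reads in Con (97.9 to 98.6%) and 95.8% in ENZR (95.3 to 96.4%), so the same receptor led in both libraries while the leading teneurin differed.

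FLRT proteins, the other ligands of latrophilins, were scarce. FLRT1 had 22 reads (1.08 CPM) in Con. It was 2.67-fold lower (1.21 to 6.30) in ENZR, with 10 reads (0.404 CPM). FLRT2, a ligand of UNC5 receptors, had 0 reads in both libraries. FLRT3, which also takes part in FGF signalling, had 0 reads in Con and 2 in ENZR, too few for a fold. FLRT1 lies inside MACROD1 and FLRT3 inside MACROD2, each on the opposite strand and with no shared exonic base in GENCODE 29. MACROD1, a mitochondrial macrodomain protein, had levels of 17.1 CPM (Con) and 18.3 CPM (ENZR), whose ratio was 1.07 (0.930 to 1.24). MACROD2 had 4 reads in Con against 10 in ENZR, with a ratio of 2.06 (0.595 to 9.01). FLRT1 was thus lower in ENZR while its host gene was not, although 22 and 10 reads are few.

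**Figure D2:**
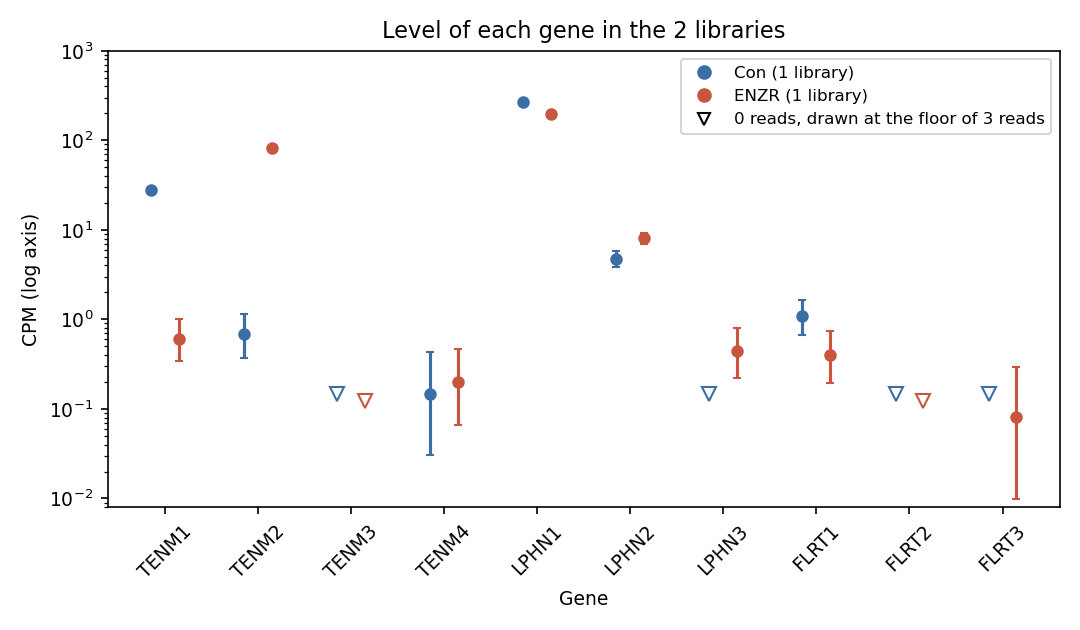
Level of each gene in CPM (y axis, log scale) in the Con and ENZR libraries (1 each). Points are CPM, bars the exact 95% Poisson interval of the reads, and open triangles mark 0 reads, drawn at the floor of 3 reads. TENM1 stands at 27.6 and 0.607 CPM and TENM2 at 0.686 and 82.3 CPM in Con and ENZR, and LPHN1 stays the highest gene in both.

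Levels of different genes were compared as CPM per 1000 coding bases, with exact Poisson intervals. In Con the order was LPHN1 at 60.2, TENM1 at 3.37, LPHN2 at 1.06, FLRT1 at 0.533, TENM2 at 0.0824 and TENM4 at 0.0177, and the other 4 genes had 0 reads. Neighbours in this order were apart beyond counting error except TENM2 (0.0451 to 0.138) and TENM4 (0.00365 to 0.0517). In ENZR, LPHN1 at 44.2 was followed by TENM2 at 9.88 and LPHN2 at 1.82, all apart from each other and from FLRT1 at 0.200 (0.0959 to 0.368). LPHN3 at 0.0938, TENM1 at 0.0740, FLRT3 at 0.0415 and TENM4 at 0.0243 came next, and from FLRT1 down each neighbouring pair had overlapping intervals. On this scale of levels, TENM2 in ENZR was above TENM1 in Con, and LPHN1 was above every teneurin in both libraries. Per 1000 bases of whole transcript the order was the same in both libraries, with LPHN1 at 33.9 and TENM1 at 2.14 in Con.

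With TENM1, TENM2, LPHN1 and LPHN2, 4 of the 10 genes were measured at a mean of at least 1 CPM, against 54.5% of all rows. Among these 4, TENM2 passed 2-fold as higher and TENM1 as lower on the log2(CPM + 1) scale, and the 2 latrophilins were in between. Over all 13803 genes, 11.3% were at least 2-fold apart, 6.69% higher and 4.64% lower. Both teneurins were past 4-fold too, which held for 3.06% of all genes. The counting interval excluded a ratio of 1 for all 4, and for 71.2% of all genes. Since the genes were chosen on this contrast, nothing is read from these shares. The 6 genes under the mean of 1 CPM were TENM3, TENM4, LPHN3 and the 3 FLRT genes, and 2 of the 10 had no read in either library, against 23.8% of all rows.

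**Figure D3:**
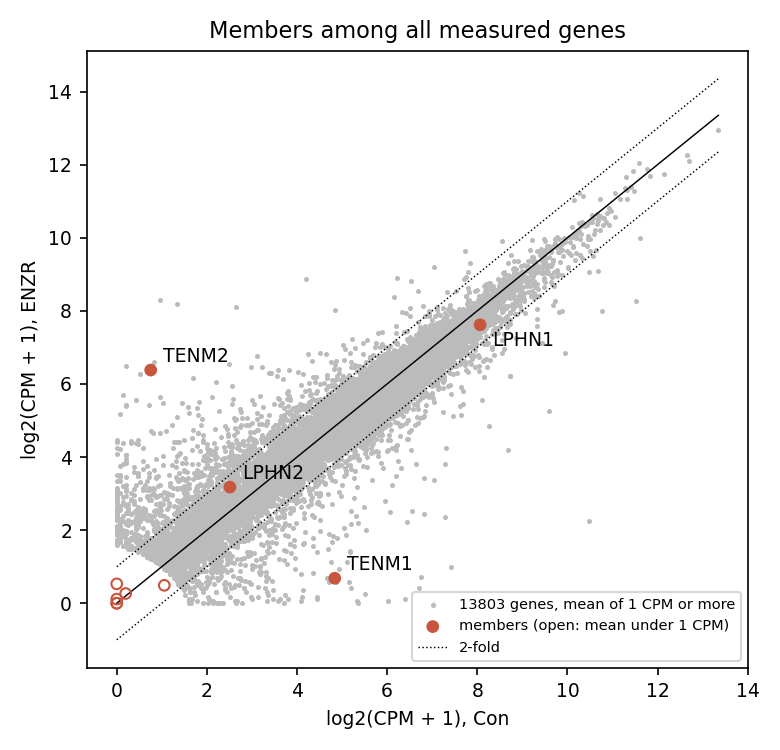
Level in Con (x axis) and in ENZR (y axis), both as log2(CPM + 1), for 13803 genes in grey and the 10 members in red, open where the mean was under 1 CPM. The solid line marks equal levels and the dotted lines 2-fold. TENM2 (0.686 and 82.3 CPM) and TENM1 (27.6 and 0.607 CPM) lie far on opposite sides, and LPHN1 and LPHN2 lie between the dotted lines.

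The genes nearest to each teneurin in the plane of log2(CPM + 1) in the 2 libraries were looked up as a description of 2 values per gene. Nearest to TENM1 were CSTA, a cysteine protease inhibitor (28.2 CPM in Con and 0.485 CPM in ENZR, distance 0.12), TUBA3D, an alpha-tubulin (24.5 and 0.607 CPM, 0.16), and TFPI, an inhibitor of coagulation (25.3 and 0.485 CPM, 0.17). TUBA3D has near-identical copies, so its reads are uncertain. Nearest to TENM2 were SEMA6A, a transmembrane semaphorin (0.784 and 96.6 CPM, 0.24), SSX2, a cancer-testis antigen with near-identical copies (0.441 and 75.7 CPM, 0.26), and TLL1, a tolloid-like metalloprotease (3 reads in Con and 89.0 CPM in ENZR, 0.57). The TENM2 neighbours were farther off than those of TENM1.

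Neighbours along the chromosome were taken from the gene order of RefSeq on GRCh38.p14, which placed 13436 of the 13803 genes. Among the 10 nearest measured genes, 5 on either side, none was past 4-fold around TENM1 or TENM2. The median log2 ratio of the TENM1 neighbours was -0.06 (range -1.56 to 1.11), beside 0.10 for 486 genes of chromosome X. That of the TENM2 neighbours was -0.45 (-0.86 to 0.08), beside -0.33 for 574 genes of chromosome 5, so TENM2 was higher amid neighbours that were mostly lower. LPHN2, on chromosome 1, was higher while 4 of its 10 neighbours were past 4-fold lower. These were PTGFR, a prostaglandin receptor (83.8 and 0.0809 CPM), PRKACB, a catalytic subunit of protein kinase A (765 and 37.4 CPM), SAMD13 (8.92 and 0.809 CPM) and DNASE2B (9.06 and 0.243 CPM). The median of the 10 was -0.09, beside 0.17 for the chromosome. Around the other genes, single neighbours past 4-fold were IL27RA by LPHN1 (2.45 and 18.8 CPM) and EPHA5 by LPHN3 (0.196 and 4.77 CPM). The others were SPTLC3 by FLRT3 (1.62 and 20.4 CPM) and PTPN21 by FLRT2 (14.6 and 0.930 CPM). The 10 neighbours of LPHN1 had a median log2 ratio of -0.38 (range -1.06 to 2.52). That of 983 genes of chromosome 19 was -0.22, and LPHN1 itself was at -0.44.

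**Figure D4:**
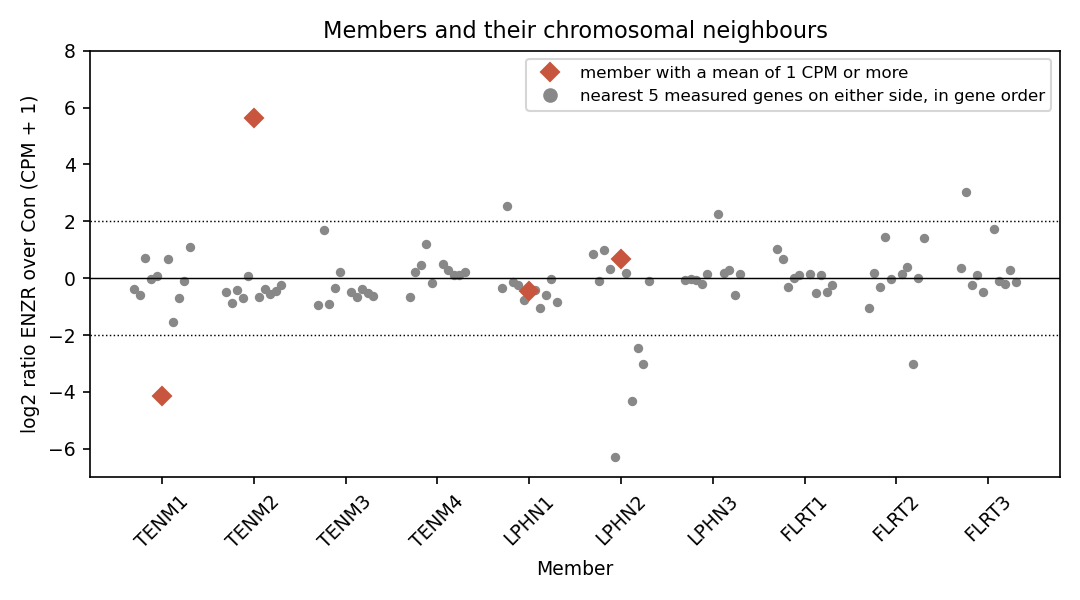
log2 ratio of ENZR over Con (y axis, CPM + 1) for each measured member (x axis), as red diamonds, and for the nearest 5 measured genes on either side in gene order, as grey points. Dotted lines mark 4-fold. TENM1 and TENM2 lie outside the dotted lines with all their neighbours inside, and 4 neighbours of LPHN2 lie below while LPHN2 does not.

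Binding partners of these proteins went both ways. Of 23 partners on the surface or inside the cell, 18 were measured. Among these, 2 passed 2-fold as higher in ENZR and 4 as lower. The other 12 stayed within 2-fold, as did 12239 of all 13803 genes. The 6 past 2-fold compare with a background of 11.3% of all genes, 6.69% higher and 4.64% lower. The partner lists were chosen with earlier results of these data known, so nothing is read from their shares, here or below. With a pseudocount of 5 CPM 4 passed, beside 5.93% of all genes, and with a mean of 5 CPM or more 2 of 14 did, beside 9.19%. The median log2 ratio was 0.14, beside -0.01 over all genes.

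Among the UNC5 netrin receptors, which FLRT proteins bind, UNC5A had 184 reads (9.01 CPM) in Con and 1 read in ENZR. It was 223-fold lower, with an interval of 39.5 to 8852. UNC5B went from 4.21 CPM to 14.6 CPM, 3.47-fold higher (2.74 to 4.45). UNC5C had 9 reads and 0 reads, and UNC5D 0 in both. In CPM, which is not scaled to gene length, the leading UNC5 receptor thus differed between the libraries. In Con, UNC5B was already at 4.21 CPM beside 9.01 CPM for UNC5A, whereas TENM2 gave only 2.41% of the teneurin reads.

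Neurexins are presynaptic receptors, and LPHN1 is known to bind them. NRXN2 had 1 read in Con against 59 in ENZR, with a ratio of 48.7 (8.41 to 1956). NRXN3 was 2.81-fold lower (1.86 to 4.34), from 3.87 CPM in Con to 1.37 CPM in ENZR, and its log2 ratio of -1.04 became -0.96 with the authors' scaling undone. DAG1, dystroglycan, which binds teneurin fragments, was at 329 and 330 CPM, with an interval of the ratio from 0.971 to 1.04. ROBO1, a Slit receptor bound by FLRT3, was at 38.4 and 50.7 CPM, and FGFR1 at 18.8 and 21.8 CPM.

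Inside the cell, 0 of the 11 measured partners passed 2-fold as higher and 2 as lower, beside 6.69% and 4.64% of all genes. Both were alpha subunits of the Gq class, which activate phospholipase C. GNAQ had 190 reads (9.31 CPM) in Con and was 15.3-fold lower (9.07 to 28.0) in ENZR, with 15 reads (0.607 CPM). A processed pseudogene of GNAQ is close in sequence, so its reads are uncertain. GNA11 went from 243 to 107 CPM, 2.26-fold lower (2.16 to 2.37). The subunits GNA12, GNA13 and GNAS, which belong to other classes, were at ratios of 1.28, 0.857 and 1.33. The latrophilin scaffolds SHANK2 and SHANK3 were at 1.67 (1.48 to 1.89) and 1.28 (1.14 to 1.45). MBD1, known to bind the intracellular part of TENM1, was at 0.909 (0.840 to 0.985).

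**Figure D5:**
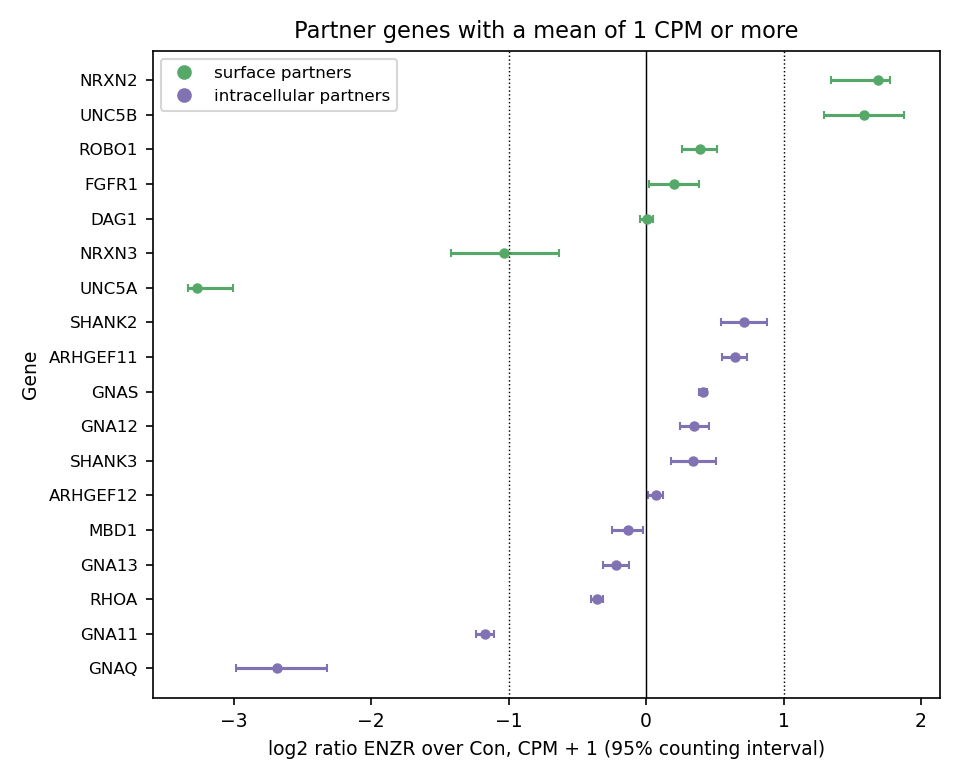
log2 ratio of ENZR over Con (x axis, CPM + 1) for the 18 measured partner genes (y axis), surface partners in green and intracellular ones in purple. Bars are 95% counting intervals and dotted lines mark 2-fold. NRXN2 and UNC5B lie to the right, and UNC5A, NRXN3, GNAQ and GNA11 to the left.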

How the data were processed

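RNA of 2 cell culture libraries, 1 per group, was sequenced as single reads of 50 bases, per the labels' protocols. The deposited table holds 1 signal value per gene and library, TMM-normalized reads per 1000000 made by the authors. Build hg19 and the tools edgeR, RSEM 1.2.15 and Bowtie2 2.1.0 are listed, without their roles, in the submitters' processing notes. RSEM shares reads among similar genes, so recovered reads may be rounded estimates. Every value lay within 0.01 reads of a whole multiple of its column's smallest value (100% in both libraries). The columns summed to 1030021 and 949450 CPM. The table held 0 other value columns and 2 repeated symbols, none of them a member.

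With 1 library per group no count test of the conditions exists and no p-value is given. Ratios received exact binomial intervals and levels exact Poisson intervals (scipy 1.17.1, Python 3.11.15). The binomial intervals were tried on simulated reads that held counting error only, so the trial says nothing about spread between cultures. The members and lists were chosen with earlier results of these data known. Named genes are all members, both host genes, partners past 2-fold, the 4 largest log2 ratios of the synaptic adhesion and adhesion receptor lists, the 3 genes nearest to members past 4-fold, and chromosomal neighbours past 4-fold; STAG2 was added after its overlap was seen. Other partners, LRRN3, CELSR3, GPR56, CD97 and single markers were named after their values were seen. Of the list symbols, GPR144 was not matched, and 3 are not reported here and left out of all list counts. Alternatives changed the pseudocount, the filter and the scaling. Transcripts and overlaps came from GENCODE 29, using for each member the transcript with the longest coding part, and promoters from RefSeq. Both are on GRCh38 and not on the build of the table, so they served for sequence, overlap and gene order only.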

Additional observations from a re-analysis of the deposited data

How the results depend on the processing

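The number of members at least 2-fold apart, TENM1 lower and TENM2 higher, was 2 under all 7 alternatives. The number of partners fell from 6 to 4 with a pseudocount of 5 CPM, and to 2 with a mean of 5 CPM or more, which left 14 of the 18 genes. It was 5 under each of the 3 other scalings. Under these alternatives, 0 log2 ratios of single members changed sign. With pseudocounts of 0.5 and 5 CPM, TENM1 came to -4.67 and -2.54, TENM2 to 6.12 and 3.94, and LPHN3 to 0.92 and 0.12. LPHN1 came to -0.33 with the scaling undone or the 10 most abundant genes left out. No paired analysis was possible because each group holds 1 library, and for the same reason no replicate could be left out. Depth limits TENM3, TENM4, LPHN3 and the FLRT genes, with at most 22 reads in a library.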

Other observations

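Other adhesion genes that share a protein class or the synapse with the members were described from 2 further lists. Both lists were chosen with earlier results of these data known, so nothing is read from their shares. Of 25 other synaptic adhesion genes, 14 were measured at a mean of at least 1 CPM. Of these, 6 passed 2-fold as higher in ENZR and 3 as lower, beside 6.69% and 4.64% of all genes. Their median log2 ratio was 0.68, beside -0.01 over all genes. LRRN1 and LRRN2, leucine-rich repeat proteins of neurons, were 52.3-fold higher (43.3 to 63.9) and 28.7-fold higher (4 and 139 reads, 11.0 to 107). LRRN3 had 2 reads and 1 read. SLITRK5, a leucine-rich organiser of synapses, had 7 reads in Con against 93 in ENZR, with a ratio of 11.0 (5.12 to 28.0). Its relative SLITRK3 went the other way, 14.0-fold lower (7.10 to 31.5), from 5.10 CPM down to 0.364 CPM.

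Of 28 adhesion G-protein-coupled receptors other than the 3 latrophilins, 11 were measured. Of these, 4 passed 2-fold as higher in ENZR and 0 as lower, and 7 lay in between, beside 6.69% higher and 4.64% lower over all genes. Their median log2 ratio was 0.36. The 4 were GPR133 at 4.26-fold (3.56 to 5.14), BAI2, a brain-enriched receptor, at 2.76-fold (2.46 to 3.10), GPR126, known for its role in peripheral myelination, at 2.53-fold (2.42 to 2.66), and GPR124, a receptor of brain vessel growth, at 3.69-fold on 17 and 76 reads (2.16 to 6.66). GPR126 was the most abundant of these 4 in reads, going from 110 CPM to 279 CPM. LPHN1, of the same receptor class, was lower in ENZR, as given above, at a ratio of 0.734. Of the 11 measured receptors, 8 were higher and 3 were lower. The 3 were CELSR3 at a ratio of 0.666 (0.551 to 0.806), GPR56 at 0.770 (0.721 to 0.821) and CD97 at 0.931 (0.827 to 1.05).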
